A study of Mus musculus with 3 samples.

Results

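The 41 genes described here encode proteins that license, unwind, prime, copy and guard DNA when a cell duplicates its genome, and they are known as genes of S phase. They are a list of gene symbols, and all 41 were among the 27998 genes of the count matrix. The cells came from kidneys of E14.5 mouse embryos that carried the Six2GFP reporter, which lights up nephron progenitors. The kidneys of more than 1 litter were combined in 3 tubes, live cells with GFP fluorescence were sorted, and each tube gave 1 droplet library of 3′ transcript tags with unique molecular identifiers (UMIs). All libraries share 1 genotype, age and treatment, so no label sets groups of samples apart, and the comparisons below are between groups of cells within the same 3 libraries. The sort relies on GFP protein, which can outlast the Six2 transcript, and the tubes hold pooled embryos, so the spread between libraries may be technical.

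DNA replication starts at origins, where Cdc6 helps to load the ring of Mcm2 to Mcm7, the replicative helicase, and where geminin, the product of Gmnn, later blocks renewed loading. Cdc45 and the GINS complex then switch the helicase on, polymerases copy the strands on the Pcna clamp, and ribonucleotide reductase and thymidylate synthase supply deoxynucleotides. Many of these genes are driven by E2F factors around the entry into S phase, while genes of G2 and M phase are often driven later through another promoter element, the CHR. In the fetal kidney Six2 and Cited1 mark self-renewing progenitors, Wnt4 marks cells that have begun to form an epithelium, and Lhx1 marks the early nephron.

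Of 7924 cell barcodes, 7896 had at least 1000 genes detected, at most 10% mitochondrial and at most 1% haemoglobin UMIs, and were kept (3023, 2759 and 2114 cells with medians of 15916, 11916 and 15815 UMIs in libraries 1, 2 and 3). Library 2 stood apart, with 12.9% of UMIs from ribosomal protein genes against 24.6% and 21.0%, and with a higher sum of the 41 genes. Libraries shared 22 barcodes, carried by 44 cells. Cells with at least 1 Lhx1 UMI formed the Lhx1 group (79 cells), and the others with at least 1 Wnt4 UMI the Wnt4 group (413). Cells with Cited1 but neither of these formed the Cited1 group (4656), cells with Six2 alone the Six2-only group (2103), and 645 cells held none of the 4 transcripts. Every group rests on 1 UMI, and a cell with more UMIs has more chances to show one: median UMIs, as means of the libraries, were 11799 in cells without a marker, 13768 in Six2-only, 14996 in Cited1, 17964 in Wnt4 and 18695 in Lhx1 cells. Cells with immune markers also showed progenitor transcripts. Six2 and Cited1 were in 13.4% and 14.6% of 82 cells with at least 2 immune marker UMIs (median 10009 UMIs). In all kept cells (median 14562) they were in 80.8% and 62.0%, and 1.22% against 5.53% showed Wnt4. Free RNA in droplets and doublets cannot be told apart here, and neither was tested.

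The promoters of these genes are shown first, because E2F elements are what the list is known for and because many members moved together in the cells. RefSeq start sites on GRCm38.p6 gave 35 windows of 300 bases for 31 of the 41 members. One of the 8-base E2F motifs TTTCCCGC, TTTCGCGC, TTTGCCGC and TTTGGCGC, read on both strands, was in 14 of these 31 genes (45.2%; 40.0% of windows). It was in 3 of 45 G2 and M phase genes (6.67%) and in 2.61% of all 27025 genes with windows (2.26% of windows). The CHR letters TTTGAA went the other way, in 6 of 31 members (19.4%), 33 of 45 G2 and M phase genes (73.3%) and 20.2% of all genes. The CCAAT letters were common to both lists, in 71.0% of members and 75.6% of G2 and M phase genes, against 41.1% of all genes. A match of letters is a description and does not show binding. Below are the 190 bases that precede the start site in 6 members with a motif there, 5′ to 3′ on the strand of the gene, with E2F motifs in capitals. They stand for helicase subunits (Mcm5, Mcm6), the helicase loader Cdc6, the chromatin factors Hells and Uhrf1 and the ubiquitin ligase adaptor Dtl.
Mcm5 (chr8:75109319-75109508, plus strand): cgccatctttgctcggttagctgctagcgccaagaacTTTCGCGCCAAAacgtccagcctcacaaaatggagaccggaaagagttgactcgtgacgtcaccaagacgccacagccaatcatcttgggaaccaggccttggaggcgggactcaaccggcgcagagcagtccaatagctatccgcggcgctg
Mcm6 (chr1:128359706-128359895, minus strand): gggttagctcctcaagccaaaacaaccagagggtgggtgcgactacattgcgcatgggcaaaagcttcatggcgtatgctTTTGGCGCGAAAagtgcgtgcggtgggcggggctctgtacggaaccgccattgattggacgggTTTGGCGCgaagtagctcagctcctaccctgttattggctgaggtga
Cdc6 (chr11:98907961-98908150, plus strand): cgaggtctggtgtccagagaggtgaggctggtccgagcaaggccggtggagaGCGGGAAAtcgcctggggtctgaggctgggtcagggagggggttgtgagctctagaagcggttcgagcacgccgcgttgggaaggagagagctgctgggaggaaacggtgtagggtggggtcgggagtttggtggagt
Hells (chr19:38930800-38930989, plus strand): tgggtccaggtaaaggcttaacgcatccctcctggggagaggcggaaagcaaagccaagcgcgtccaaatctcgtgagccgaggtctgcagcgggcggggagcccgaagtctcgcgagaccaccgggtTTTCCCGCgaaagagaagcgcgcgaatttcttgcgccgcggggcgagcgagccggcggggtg
Uhrf1 (chr17:56304123-56304312, plus strand): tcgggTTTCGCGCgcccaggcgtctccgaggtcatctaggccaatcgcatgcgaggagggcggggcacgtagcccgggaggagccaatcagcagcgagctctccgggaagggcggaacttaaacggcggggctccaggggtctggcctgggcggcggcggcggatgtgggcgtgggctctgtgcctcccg
Dtl (chr1:191575545-191575734, minus strand): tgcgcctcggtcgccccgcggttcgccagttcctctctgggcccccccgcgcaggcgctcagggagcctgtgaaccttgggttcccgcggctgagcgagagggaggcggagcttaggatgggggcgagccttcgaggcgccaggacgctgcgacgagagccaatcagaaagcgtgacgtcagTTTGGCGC
In Mcm5 the capitals are a pair of overlapping motifs on opposite strands, from -153 to -142 relative to the start. Mcm6 held such a pair from -110 to -99 and a further motif from -47 to -40. In Dtl the motif ended at the last base before the start, and in Cdc6 it lay on the opposite strand from -138 to -131. Uhrf1 also had a window at another start site farther upstream, with the stretch chr17:56303147-56303336, and that window held none of the E2F motifs. Of the members named most often below, Rrm2, Pcna, Tyms and Rad51ap1 had none of these letters in their windows, which says nothing about the factor, and Gmnn had no window.

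Per 1000000 UMIs (CPM), the 41 genes together held 4437, 5360 and 4473 in the Six2-only cells of libraries 1, 2 and 3. In Cited1 cells the sum was 4990, 6289 and 5271, in Wnt4 cells 5179, 6770 and 5750, and in Lhx1 cells 4639, 5634 and 6629. Within each library the order was Six2-only below Cited1 below Wnt4, while Lhx1 cells lay between Six2-only and Cited1 cells in libraries 1 and 2 and above all others in library 3. The means were 4756 ± 523, 5517 ± 683, 5899 ± 806 and 5634 ± 995 (SD, n = 3 libraries), so neighbouring groups overlap in level across libraries even where the order holds within each. Cells without any of the 4 transcripts had the lowest sum, 4161 ± 482 CPM. They are not a pure set, since 10.4% of them held at least 2 immune marker UMIs.

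**Figure D1:**
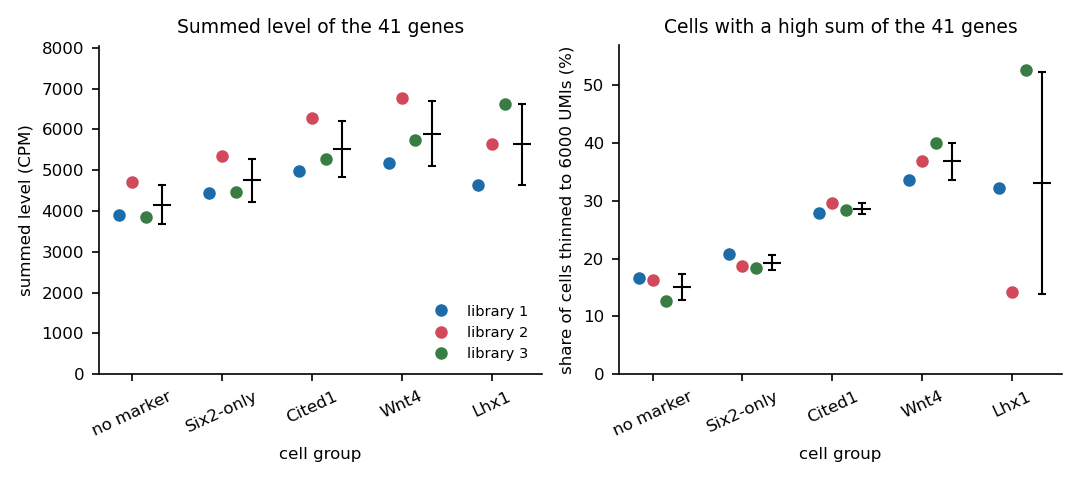
Left, summed level of the 41 genes (CPM) in each cell group and library; right, share of cells (%) whose sum, at 6000 UMIs per cell, reached the upper quartile of their library. Points are the 3 libraries and bars the mean ± SD: Cited1 cells sit between 27.8% and 29.7%, all above Six2-only cells, and Lhx1 cells spread from 14.3% to 52.6%.

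To compare cells at 1 depth, every cell was thinned to 6000 UMIs, which left out 195 shallower cells and kept 7701. The sum of the 41 genes then had a median of 21, 26.5 and 22 UMIs per cell and ran from 0 to 105. A cell was called high when its sum reached the upper quartile of its library, 37, 44 and 38 UMIs. The sum is graded, with 210, 231 and 134 cells within 10% of those values, so high cells are the top of a range and not a separate class. High cells were 20.7%, 18.8% and 18.3% of Six2-only cells in the 3 libraries, and 27.8%, 29.7% and 28.4% of Cited1 cells. In Wnt4 cells the shares were 33.5%, 36.9% and 40.0%. At this limit the 3 groups did not overlap: means were 19.3% ± 1.28, 28.6% ± 0.960 and 36.8% ± 3.25. With the 90th percentile as the limit the difference between Wnt4 and Cited1 cells changed sign, as given in the last section. In Lhx1 cells 10 of 31, 4 of 28 and 10 of 19 were high, with exact binomial 95% intervals of 16.7 to 51.4%, 4.03 to 32.7% and 28.9 to 75.6% that cover counting error only. Their share therefore could not be placed relative to the other groups at this number of cells. Within each library the share in Wnt4 cells exceeded that in Cited1 cells, by 5.70, 7.22 and 11.6 percentage points, and Six2-only cells differed from Cited1 cells by -7.07, -10.9 and -10.0 points. No p is given for these shares, since the members were chosen with earlier results of these data known. The groups are also paired by library, and a two-sided exact permutation test over 3 pairs cannot go below 0.25.

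Depth moved with the sum of the 41 genes even after thinning. High cells had 1.20 to 1.56 times the median UMIs of the other cells of their group and library, in each of the 4 groups with a marker. In the lowest tertile of UMIs of each library, 3.98% ± 1.86 of Six2-only, 5.14% ± 2.23 of Cited1 and 12.1% ± 2.14 of Wnt4 cells were high. In the highest tertile these shares were 50.1% ± 5.80, 55.7% ± 2.77 and 51.1% ± 5.73. The distance between Wnt4 and Cited1 cells was thus 6.95 percentage points in the lowest, -3.59 in the middle and -4.59 in the highest tertile, against 8.19 ± 3.08 over all cells. When each Wnt4 cell was paired with the Cited1 cell of its library nearest in UMIs, Cited1 cells had the higher share, 42.1% ± 4.36, which leaves Wnt4 cells 5.29 points lower. With cells paired by depth, Wnt4 cells were therefore not richer in cells with a high sum. In the lowest tertile their share was higher in each library, but on few cells and without an interval: 12%, 14.3% and 10% of 25, 21 and 10 Wnt4 cells were high. The shares of Cited1 cells there were 7.71%, 4.03% and 3.69%. Averaged over the libraries, Six2-only cells had the lower share in each of these settings: the difference from Cited1 cells was -9.34 ± 2.01 points over all cells, -1.17, -5.44 and -5.59 in the tertiles and -4.05 after pairing. Library 1 departed from this in the highest tertile, with 54.2% of Six2-only against 52.5% of Cited1 cells. After pairing its shares were 20.7% and 21.4%, and its sums of the 41 genes were 4437 CPM in Six2-only and 4412 CPM in Cited1 cells. More RNA in a cell and better recovery of its RNA cannot be told apart in these data.

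**Figure D2:**
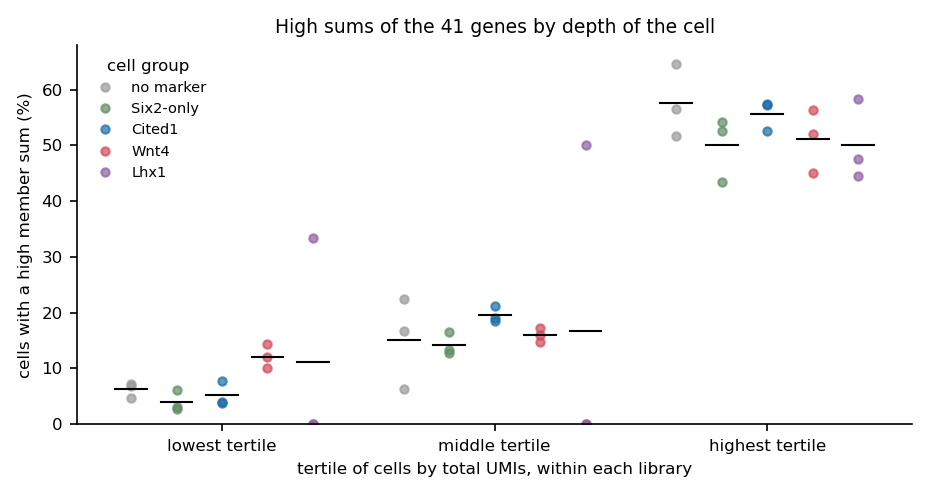
Share of cells with a high sum of the 41 genes (%), by tertile of total UMIs within each library (lowest to highest on the x axis), for the 5 cell groups. Points are libraries and lines their means: shares rise from 3.98% to 12.1% in the lowest tertile to between 50.1% and 57.7% in the highest, for every group.

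Six2-only cells, read without regard to depth, had less of nearly the whole list than Cited1 cells. With cells paired by depth most of the calls were lost, as given further below. In edgeR's quasi-likelihood test on the summed counts of each group and library, with the library as a block, 33 of 41 members were lower and 0 higher, at an adjusted p under 0.05. Over all 11832 genes tested 1.39% were lower and 0.6% higher, and the 33 members made up 20% of the 165 lower genes. The members were chosen with earlier results of these data known, so these shares are a description and not independent evidence. The median log2 difference of the members was -0.23, against 0.01 over all genes, and all 33 fell in each of the 3 libraries. By role, 7 of 10 helicase and origin genes, 7 of 8 polymerase, clamp and lagging strand genes, 3 of 3 nucleotide supply genes, 6 of 9 chromatin and histone supply genes, 8 of 9 checkpoint and repair genes and both of Ccne2 and E2f8 fell.

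Rad51ap1, whose product acts in recombination repair, stood at 31.3, 32.6 and 27.6 CPM in the Six2-only cells of libraries 1 to 3 and at 42.5, 46.1 and 42.2 CPM in their Cited1 cells. It fell by 0.50 ± 0.06 (log2, SE; edgeR adjusted p = 7.29e-06), and the groups did not overlap. E2f8, an E2F factor that represses its own class of targets, had 16.7, 20.7 and 13.6 CPM against 20.0, 29.9 and 23.4 CPM. It fell by 0.49 ± 0.08 (edgeR adjusted p = 0.000522), although library 2 of the first group exceeded library 1 of the second. With cells paired by depth E2f8 had -0.31 ± 0.10 and was not called (edgeR adjusted p = 0.196). Rrm2, the S phase subunit of ribonucleotide reductase, had 228.6, 250 and 202 CPM against 286, 367 and 290 CPM, a decrease of every library without overlap. The Rrm2 difference was -0.45 ± 0.05 (edgeR adjusted p = 1.25e-06).

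Exo1, a DNA exonuclease, had 30.5, 33.1 and 24.1 CPM against 36.3, 48.7 and 37.2 CPM. Dscc1, part of a loader of the Pcna clamp, had 23.2, 24.1 and 20.5 CPM against 26.5, 35.4 and 30.2 CPM. Neither gene overlapped between the groups, and they fell by 0.45 ± 0.07 and 0.41 ± 0.07 (edgeR adjusted p = 6.12e-05 and 0.000937). Atad2, a chromatin ATPase, had 48.3, 57.3 and 48.7 CPM against 64.9, 77.2 and 63.3 CPM and fell by 0.40 ± 0.05 (edgeR adjusted p = 8.91e-06). Ccne2, the cyclin E that starts S phase with Cdk2, had 33.8, 37.9 and 32.7 CPM against 39.9, 53.6 and 45.1 CPM and fell by 0.38 ± 0.06 (edgeR adjusted p = 9.76e-05). Clspn, the adaptor of the replication checkpoint kinase, had 40.7, 37.8 and 41.8 CPM against 51.2, 49.6 and 56.2 CPM. It fell by 0.37 ± 0.06 (edgeR adjusted p = 0.000154), again with no overlap. With cells paired by depth the differences of Exo1, Dscc1, Ccne2 and Clspn were -0.14 ± 0.07, -0.20 ± 0.08, -0.13 ± 0.07 and -0.20 ± 0.05, and none of the 4 was called (edgeR adjusted p = 0.501, 0.393, 0.576 and 0.0657).

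The helicase subunits were among the members with small differences. Mcm2 had 143, 203 and 159 CPM in Six2-only and 156, 219.9 and 169 CPM in Cited1 cells. Mcm4 had 116, 163 and 136 against 126, 180.3 and 145 CPM, and Mcm6 268, 366 and 298 against 283, 400 and 319 CPM. These 3 subunits had differences of -0.10 ± 0.03, -0.11 ± 0.04 and -0.09 ± 0.03 and edgeR adjusted p of 0.0727, 0.163 and 0.0826, so they were not called. Mcm3, Mcm5 and Mcm7 fell by 0.14 ± 0.03, 0.21 ± 0.04 and 0.14 ± 0.03 (edgeR adjusted p = 0.0197, 0.00125 and 0.0089). The calls of Mcm3 and Mcm7 were lost on leaving out any 1 library (adjusted p of 0.05 to 0.241 and 0.0631 to 0.129), and that of Mcm5 on none. Across all 6 subunits library 2 was the highest of the 3 libraries in Six2-only, Cited1 and Wnt4 cells. The other members without a call were Pold3, Casp8ap2, Ubr7, Ung and Cdca7, and Cdca7, a chromatin factor gene, was nearest to 0 with -0.02 ± 0.03.

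Among 58 other genes of replication, from origin recognition subunits to thymidine kinase, 28 fell and 0 rose between these groups, with a median of -0.18. Mybl2 (-0.53 ± 0.09), E2f2 (-0.48 ± 0.12) and Tk1 (-0.40 ± 0.05) led them (edgeR adjusted p = 0.00089, 0.0317 and 8.78e-06). These 28 calls became 13, 10 and 15 without library 1, 2 or 3, 2 by DESeq2 and 0 without the library as a block (12 at an unadjusted p under 0.05). Of 51 G2 and M phase genes 16 fell and 0 rose, with a median of -0.19. Their calls became 7, 13 and 4 without library 1, 2 or 3, 1 by DESeq2 and 0 without the block (6 at an unadjusted p under 0.05). When the groups were formed from counts thinned to 6000 UMIs, so that each cell had the same chance to show a marker, 17 members and 7 of 57 other replication genes were lower, where 0.387% of all genes were lower and 0.248% higher. In that fit 0 G2 and M phase genes were lower and 2 were higher. When Six2-only cells were instead paired with Cited1 cells of the same depth, 3 members were lower (18 at an unadjusted p under 0.05), where 0.321% of all genes were lower and 0.498% higher. They were Rad51ap1 (-0.26 ± 0.06), Atad2 (-0.23 ± 0.05) and Rrm2 (-0.18 ± 0.04), with edgeR adjusted p of 0.0353, 0.0153 and 0.0281. The median of the members was then -0.09, and 0 other replication or G2 and M phase genes fell. Without the library as a block 0 members passed (13 at an unadjusted p under 0.05), where 1 of all 11832 genes was lower. DESeq2 called 10 members, among 21 lower genes of 11832. Without library 1, 19 member calls were left, among 60 lower genes of 11870. Without library 2 or 3 there were 29 and 26, among 112 lower genes of 11770 and 79 of 11962.

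**Figure D3:**
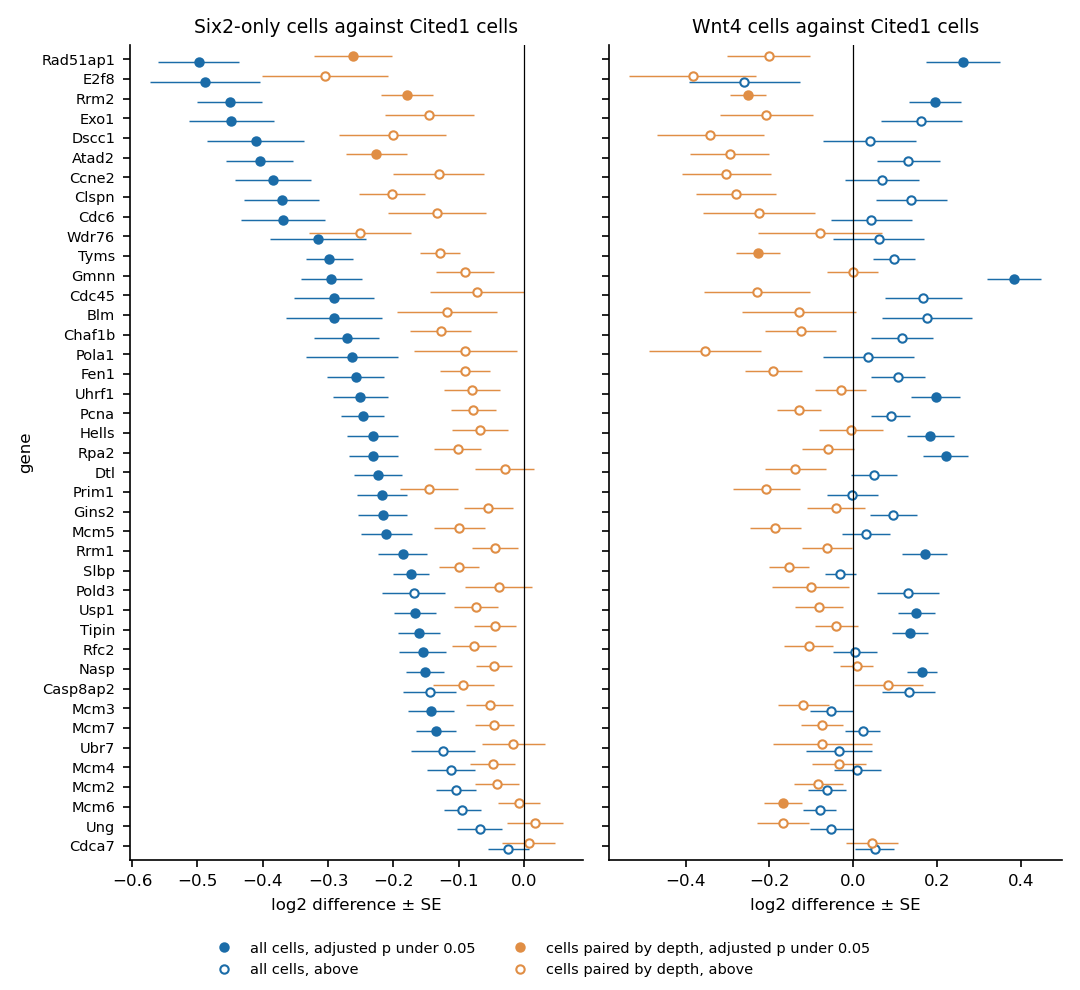
Log2 difference ± SE of each of the 41 genes (rows) in Six2-only (left) and Wnt4 cells (right) against Cited1 cells, from all cells (blue) and from cells paired by depth (orange); filled points have an edgeR adjusted p under 0.05. On the left 33 blue and 3 orange points are filled and lie below 0; on the right 10 blue points are filled above 0 and 3 orange points below 0.

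Wnt4 cells, read without regard to depth, had more of 10 members than the same Cited1 cells, which serve as the second group in this comparison too. In edgeR 10 of 41 were higher and 0 lower (11 and 1 at an unadjusted p under 0.05), where 6.69% of all genes were higher and 6.31% lower. The median difference of the members was 0.10, against -0.01 over all genes. The calls were 1 of 10 helicase and origin genes, 1 of 8 polymerase, clamp and lagging strand genes, 2 of 3 nucleotide supply genes, 3 of 9 chromatin and histone supply genes and 3 of 9 checkpoint and repair genes.

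Gmnn, which encodes the licensing inhibitor geminin, stood at 129, 167 and 166 CPM in the Wnt4 cells of the 3 libraries and at 109, 123 and 112.5 CPM in their Cited1 cells. It did not overlap between the groups and rose by 0.38 ± 0.06 (edgeR adjusted p = 5.73e-05), the largest difference of the list. Rad51ap1 had 47.4, 60.2 and 54.1 CPM against 42.5, 46.1 and 42.2 CPM and rose by 0.26 ± 0.09 (edgeR adjusted p = 0.0442), a call lost on leaving out any 1 library (0.0867 to 0.287). Rpa2, a subunit of the protein that coats single-stranded DNA, had 132, 188 and 152 CPM against 116, 157 and 127 CPM. It was higher in each library and rose by 0.22 ± 0.05 (edgeR adjusted p = 0.0045; 0.0589 without library 1), although the groups overlapped across libraries. Uhrf1, which brings the maintenance methylase to new DNA, had 149.8, 185 and 161 CPM against 132, 159 and 138 CPM and rose by 0.20 ± 0.06 (edgeR adjusted p = 0.0234).

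Rrm2 had 301, 450.5 and 359 CPM in Wnt4 cells against 286, 367 and 290 CPM and rose by 0.20 ± 0.06 (edgeR adjusted p = 0.0333; 0.239 without library 3). Hells, a chromatin remodeller needed for DNA methylation, had 109, 88.0 and 93.7 CPM against 96.6, 75.5 and 81.9 CPM and rose by 0.18 ± 0.06 (edgeR adjusted p = 0.0268). Rrm1, the large subunit of the reductase, had 152, 189 and 184 CPM against 134, 181 and 154 CPM and rose by 0.17 ± 0.05 (edgeR adjusted p = 0.0306). Nasp, a histone chaperone gene, had 477, 461 and 457 CPM against 431, 401 and 402 CPM and rose by 0.17 ± 0.04 without overlap (edgeR adjusted p = 0.00137). Usp1 and Tipin, which act in repair and in fork protection, rose by 0.15 ± 0.04 and 0.14 ± 0.04 (edgeR adjusted p = 0.0209 and 0.0329). Among the members without a call E2f8 was the farthest from 0, at -0.26 ± 0.13 (edgeR adjusted p = 0.221).

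These increases were not found at matched depth. With Wnt4 cells paired with Cited1 cells of the same UMIs, 0 members were higher, also at an unadjusted p under 0.05, and 3 were lower, with 15 lower at an unadjusted p under 0.05, where 1.98% of all genes were higher and 2.09% lower. Rrm2 turned to -0.25 ± 0.04, Tyms, which encodes thymidylate synthase, was at -0.23 ± 0.05 and Mcm6 at -0.17 ± 0.04 (edgeR adjusted p = 0.000317, 0.00799 and 0.0275). The members' median was then -0.13, against 0.00 over all genes. Of the 10 genes called over all cells 9 changed sign, with Nasp at 0.01 ± 0.04, but of these only Rrm2 was called lower. Of these 9, Gmnn, Hells, Uhrf1, Tipin and Rpa2 lay within their SE of 0 (-0.0015 ± 0.06, -0.0046 ± 0.08, -0.030 ± 0.06, -0.040 ± 0.051 and -0.060 ± 0.063). With groups formed from thinned counts, where 1.83% of all genes were higher and 1.56% lower, 2 members were higher, Gmnn (0.49 ± 0.13) and Rpa2 (0.44 ± 0.13; edgeR adjusted p = 0.0107 and 0.0194), and the median was 0.03. Without the library block 0 members passed (1 at an unadjusted p under 0.05), where 104 of all 11832 genes were higher. DESeq2 called 3 members higher, where 546 of 11832 genes were. On leaving out library 1, 2 or 3 the members called higher were 2, 9 and 3. Over all genes these fits called 338 of 11870, 829 of 11770 and 346 of 11962 higher. Gmnn and Rrm2 kept their calls without library 1, and Gmnn, Rpa2 and Nasp theirs without library 3.

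Genes of the later phases had the larger median difference in this comparison. Of 51 G2 and M phase genes 31 were higher in Wnt4 cells over all cells and 0 lower, with a median of 0.31, led by Cdc25c (0.63 ± 0.12), Anln (0.60 ± 0.13) and Bub1 (0.57 ± 0.09; edgeR adjusted p = 0.000395, 0.00156 and 1.45e-05). Without library 1, 2 or 3 the count was 21, 37 and 13 (median 0.21 without library 3), DESeq2 called 13, and 1 was left without the block. In the thinned groups 12 were higher, and with paired cells 1 was higher and 3 lower. Of the 58 other replication genes 10 were higher and 1 lower: Pold4 had -0.49 ± 0.13, and Ccna2 (0.43 ± 0.09) and Dbf4 (0.42 ± 0.08) had the largest increases among those called (edgeR adjusted p = 0.0112, 0.000897 and 0.000171). The higher calls became 7, 8 and 2 without library 1, 2 or 3, 6 by DESeq2 and 0 without the block (7 at an unadjusted p under 0.05). High sums of G2 and M phase genes were found in 40.3% ± 7.64 of Wnt4, 26.9% ± 0.649 of Cited1 and 21.1% ± 0.861 of Six2-only cells. Wnt4 cells that still held Cited1 and those that did not had sums of the 41 genes of 5785 ± 553 and 6062 ± 1226 CPM, a distance within the spread of the libraries. Immediate early genes moved the opposite way, with 9 of 12 lower and 2 higher in Wnt4 cells, and their part in the result was not tested.

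In Lhx1 cells, which rest on 31, 29 and 19 cells, 0 members were higher and 1 lower than in Cited1 cells (4 and 6 at an unadjusted p under 0.05; DESeq2 0 and 1), where 3.44% of all genes were higher and 2.22% lower. Mcm6 had 203, 315.5 and 301 CPM in Lhx1 cells against 283, 400 and 319 CPM in Cited1 cells. It was lower in each library, with ranges that overlap, and fell by 0.34 ± 0.08 (edgeR adjusted p = 0.00349), a call that was lost without library 1 (0.303), without the block (0.291) and at paired depth (0.0713), where the difference was -0.36 ± 0.11. It was also lost without cells that hold another cell type's markers (0.0518). The group holds such cells: summed ureteric markers ran from 5.28 to 230.0 CPM over its libraries, 4 of its cells had at least 2 such UMIs, and Aqp2 and Upk3a were at 0. In Six2-only, Cited1 and Wnt4 cells ureteric markers reached at most 1.05, 1.02 and 1.64 CPM. Stromal markers ran from 10.6 to 88.2 CPM, with 10 cells (12.7%) at 2 or more UMIs and Pdgfrb at 0. The share was much the same elsewhere, at 9.89% of Six2-only, 10.4% of Cited1 and 9.69% of Wnt4 cells. Endothelial markers ran from 7.23 to 8.02 CPM, with 3 such cells and Pecam1, Cdh5, Tek and Emcn at 0, and from 7.70 to 9.13 CPM in Cited1 cells. Immune markers were at 0 in 2 of its libraries and at 7.23 CPM in the other. Of the 79 cells, 24 also held Wnt4, 28 held Cited1 without Wnt4 and 19 held Six2 alone. Against Wnt4 cells 0 members were higher and 0 lower in edgeR and in DESeq2 (6 lower at an unadjusted p under 0.05 in edgeR), where 1.19% of all genes were higher and 0.27% lower. The members' median there was -0.12, and it was -0.06, -0.07 and -0.24 without library 1, 2 or 3 and 0.00 with cells paired by depth. The small number of cells, 79, limits what could be seen.

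Among cells without Wnt4 and Lhx1, thinned counts also allowed a look at the amount of Cited1 at equal depth. The sum of the 41 genes was 4456 ± 458 CPM in 2099 cells with Six2 and no Cited1 UMI, 4995 ± 674 with 1 Cited1 UMI, 5350 ± 778 with 2 and 5112 ± 533 with 3 or more. Within each library it was higher at 1 than at 0, higher again at 2, and at 3 or more between the values at 0 and 2. These sums carry no test. For G2 and M phase genes the same bins had 4901 ± 339, 5067 ± 222, 5142 ± 398 and 4625 ± 244 CPM, so that the last bin lay below the first in libraries 1 and 2 and level with it in library 3 (4638 against 4597). By Six2 UMIs, cells without Cited1 had 4773 ± 676 CPM of the 41 genes at 0, 4447 ± 388 at 1 and 4444 ± 622 at 2 or more Six2 UMIs, lower in each library at 1 than at 0 but by less than the spread of libraries. The bin at 0 held 1979 cells, while only 645 kept cells lacked all 4 transcripts before thinning. Most cells of this bin therefore held a marker that thinning removed. The 645 cells had the lowest sum of the groups at full depth (4161 ± 482 CPM), so the 2 orders differ. Thinning fixes the number of UMIs counted and not the depth of the cell they came from.

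**Figure D4:**
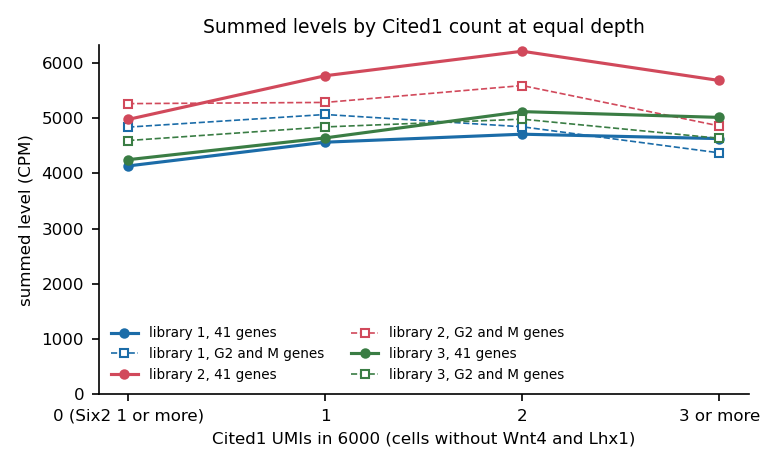
Summed level (CPM) of the 41 genes (filled circles) and of 51 G2 and M phase genes (open squares) by Cited1 UMIs in cells thinned to 6000 UMIs, without Wnt4 and Lhx1; lines join the values of 1 library. The 41 genes have their lowest level at 0 Cited1 UMIs in all 3 libraries (mean 4456 CPM) and their highest at 2 (mean 5350 CPM).

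The members also differed among themselves. Nasp, Mcm6 and Slbp, which encodes the binding protein of histone mRNA, gave the most UMIs, at 401, 316 and 314 CPM over all kept cells, and E2f8 the fewest, at 21.1 CPM (3′ tags, not scaled by transcript length). They were detected in 94.3%, 89.8%, 93.8% and 21.6% of cells. Nasp stood at 391, 349 and 363 CPM in the Six2-only cells of libraries 1 to 3, and Slbp at 269, 337 and 267 CPM. In Cited1 cells Slbp was at 298, 380.4 and 314 CPM, a fall of 0.17 ± 0.03 in Six2-only cells (edgeR adjusted p = 0.000199). In Wnt4 cells it was at 298, 372.5 and 299.8 CPM and in Lhx1 cells at 243, 356 and 316 CPM, with no call.

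Across cells at equal depth, the gene that best followed the other 40 was Rrm2, with a Pearson r of 0.675 (0.669 to 0.680 in the libraries). Pcna (0.571), Tyms (0.513) and Gmnn (0.501) came next, and Ubr7 (0.176), Blm (0.212) and Pola1 (0.229) last. Low counts lower these values, and they are descriptions over cells that share libraries. The non-members with the highest r to the sum, of 7904 genes detected in at least 5% of cells, were 2810417H13Rik (0.558), Tk1 (0.498), Lig1 (0.483) and Ranbp1 (0.481), then Tuba1b, Fbxo5 and Ccne1 (0.478, 0.466 and 0.454).

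Cells can be high for the 41 genes, for G2 and M phase genes, for both or for neither, and the level of each gene in the first and second of these kinds orders the members. These kinds were cut from the members' own sum, so the values are a description with no test. Cdc6 stood at 93.7 ± 6.79 CPM in cells high for the 41 genes only, at 5.18 ± 1.72 in cells high for G2 and M phase genes only and at 9.59 ± 1.02 in cells high for neither (SD, n = 3 libraries). Ung, which removes uracil from DNA, had 377 ± 60.3, 26.9 ± 3.81 and 127 ± 22.5 CPM, and Ccne2 114 ± 8.06, 11.2 ± 1.28 and 14.52 ± 2.58 CPM. Their ratios of the second level to the first were 0.055, 0.072 and 0.098, the lowest of the list, and Chaf1b and Dtl followed with 0.20 each. The 6 Mcm subunits ran from 0.243 for Mcm4 to 0.439 for Mcm7, and Mcm2 to Mcm7 were all lower in cells high for G2 and M phase genes than in cells high for neither.

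At the other end Blm, a helicase of repair, kept 30.5 ± 4.85 of 40.2 ± 3.08 CPM (ratio 0.76), Rrm1 153 ± 36.1 of 202 ± 24.5 (0.758), Tyms 217 ± 40.4 of 322 ± 43.1 (0.674) and Nasp 371 ± 25.4 of 559 ± 37.4 (0.664). Rrm2 and Gmnn had intermediate ratios of 0.369 and 0.439, yet lay well above the cells high for neither: Rrm2 had 540 ± 42.8, 199 ± 36.4 and 46.8 ± 6.32 CPM in the 3 kinds of cells, and Gmnn 203 ± 1.36, 89.3 ± 3.16 and 40.2 ± 2.22 CPM.

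**Figure D5:**
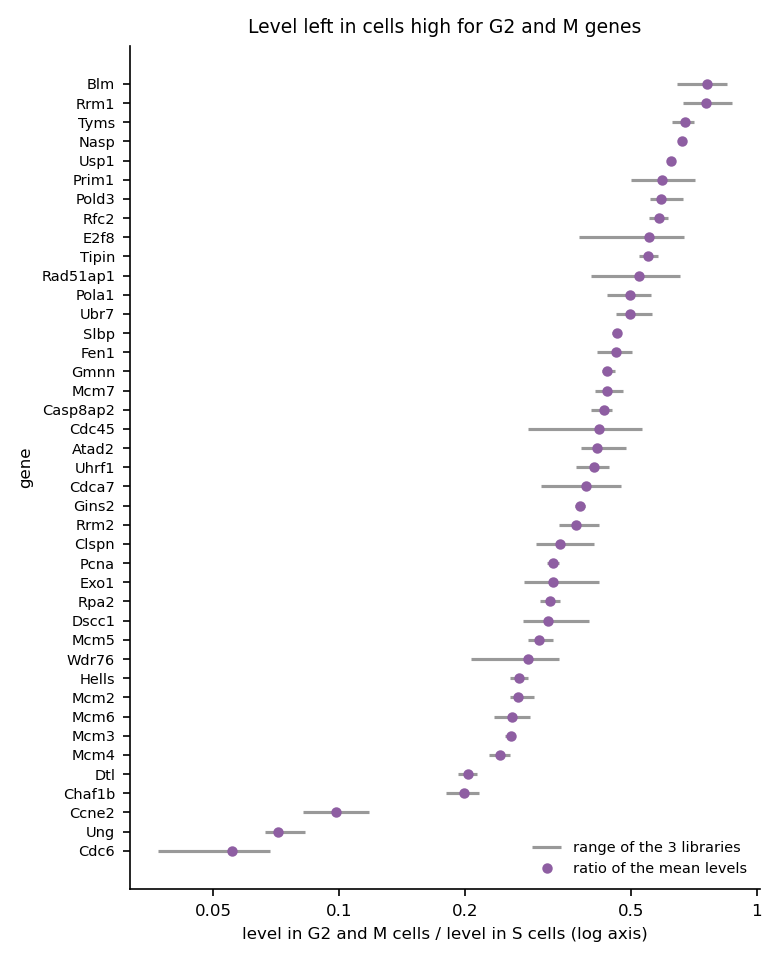
Ratio, on a log axis, of each gene's level in cells high for G2 and M phase genes only to its level in cells high for the 41 genes only; points are ratios of the mean levels and bars the range of the 3 libraries. Cdc6 (0.055), Ung (0.072) and Ccne2 (0.098) lie apart at the low end, and Blm (0.76) and Rrm1 (0.758) at the high end.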

How the data were processed

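Whole-number UMI counts per gene and cell were used as the authors deposited them, in 1 matrix of the 3 libraries told apart by barcode suffix, and no source used here says which suffix belongs to which labelled tube. Per the submitters' processing notes they came from Cell Ranger 1.3.1 and mm10, and per the labels' protocols from the Chromium kit. Cells were filtered and grouped as described above. Counts were summed over the cells of each group and library (12 sums) and tested with edgeR 4.0.16 (TMM scaling, its default filter on low counts, quasi-likelihood test over all 4 groups, library as a block, Benjamini-Hochberg adjustment over all genes tested, threshold 0.05). The 4 groups share their libraries, so every library pairs the sums by design. DESeq2 1.42.0 was an alternative. The scripts were tested on simulated data. With the library as a block, p-values measure how much the differences between groups vary over 3 pooled tubes. They leave out the spread in level between the tubes. Both kinds of spread may be technical.

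Thinning drew 6000 UMIs per cell without replacement, with 3000 as an alternative. No doublet caller was run. The sort gated on size against doublets, per the labels' protocols, and an alternative left out the 6% of cells with most UMIs. Members to be named with full values were the 6 Mcm genes, the 3 with the most UMIs and, per comparison, up to 8 called members with the largest differences in the same direction in every library, and other genes up to 3 per list and comparison. The 8 non-members with the highest correlation to the sum were also to be named, and 1 of them is not reported here. The members and lists were chosen with earlier results of these data known. Pairing cells by depth and splitting by tertile of UMIs were added after seeing the data. The start-site windows are from RefSeq, 250 bases before to 50 after.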

Additional observations from a re-analysis of the deposited data

How the results depend on the processing

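Depth of the cells, the library block and the number of libraries set most limits. Scaling by DESeq2's size factors within edgeR (RLE), fitting only the groups compared and keeping all barcodes left every count of members called within 1.5 times. Fitting only the groups compared raised the G2 and M phase genes lower in Six2-only cells from 16 to 29, and all genes higher there from 71 to 221. Members called higher in Wnt4 cells numbered 10, and 3 by DESeq2, 0 with no replicate block, 6 with cells thinned to 6000 UMIs, 2 with groups from thinned counts, 0 with cells paired by depth (where 3 were lower) and 2 to 9 on leaving out 1 library. At paired depth the log2 differences of Usp1, Rpa2, Rad51ap1, Rrm1, Tipin, Gmnn, Rrm2, Uhrf1 and Hells were -0.082, -0.060, -0.20, -0.062, -0.040, -0.0015, -0.25, -0.030 and -0.0046. Members lower in Six2-only cells numbered 33, and 10 by DESeq2, 0 with no replicate block, 17 with groups from thinned counts, 3 with cells paired by depth and 19 to 29 on leaving out 1 library. In Lhx1 against Cited1 cells, higher members numbered 0, and 1 without a filter on low counts, 1 without cells of other types, 4 with groups from at least 2 UMIs and 0 to 2 on leaving out 1 library. Lower members numbered 1, and 3 without that filter, 0 with no replicate block, 0 with thinned cells, 2 with groups from thinned counts, 0 with cells paired by depth and 0 to 3 on leaving out 1 library. Against Wnt4 cells, 1 member was lower in Lhx1 cells without the filter on low counts. The difference in the share of high cells between Wnt4 and Cited1 cells, 8.19 points, was -1.26 with the 90th percentile as the limit, 25.6 with groups from at least 2 UMIs, -3.59 and -4.59 in the middle and highest tertile of UMIs and -5.29 with cells paired by depth. Between Six2-only and Cited1 cells, -9.34 points became -4.88 with the 90th percentile, -1.17, -5.44 and -5.59 in the tertiles and -4.05 with cells paired by depth. The cause of each change was not tested.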
